A study of Mus musculus with 6 samples.

Results

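The bile duct and progenitor markers are the 8 genes Krt7, Krt19, Epcam, Sox9, Spp1, Cftr, Prom1 and Krt23. They were taken by symbol because they are used as markers of cholangiocytes, the epithelial cells that line bile ducts, and of the ductular reaction. All 8 were found among the 55450 genes of the deposited table. Their poly(A) RNA was measured in the left liver lobe of 6 mice labelled C57BL/J, with 1 library per mouse. The knockout group was 3 LKB1 fl/fl mice, which carry loxP-flanked alleles of the LKB1 gene, Stk11, and the wild-type (WT) group was 3 mice of normal genotype. Both groups received Cre recombinase by adeno-associated virus serotype 8 (AAV8) at 6 weeks of age, and livers were taken 4 weeks later, at 10 weeks, so that virus and Cre are shared by the controls. The promoter that drives Cre is not given in the sources used here. Whole tissue was sequenced, so fewer cells of a type and less RNA per cell cannot be told apart.

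Hepatocytes and cholangiocytes both arise from the hepatoblasts of the embryonic liver. Cholangiocytes carry the keratins 7 and 19 and the adhesion protein EpCAM, depend on the transcription factor SOX9 during duct formation, and secrete fluid through the chloride channel CFTR. In many forms of liver injury small duct-like cells multiply around the portal tracts, which is called the ductular reaction, and some of its markers can also be made by stressed hepatocytes. LKB1 is a kinase that activates AMPK and its relatives and takes part in epithelial polarity.

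The library totals ran from 47659122 to 56147667 counts. Stk11 was at 22.1, 14.4 and 11.4 CPM (counts-per-million, with TMM-scaled library sizes) in knockout replicates 1 to 3 and at 64.2 to 69.7 CPM in WT, with an edgeR adjusted p of 0.0167. Its reads are totals over the whole gene and do not separate deleted from retained exons. Replicate 1 of each group stood apart: these libraries had 42472 and 29243 Xist counts and at most 6 Y-linked counts, whereas the other 4 had at most 16 Xist counts and at least 6146 Y-linked counts. Results are therefore also given for replicates 2 and 3 of each group, a comparison of 2 mice with 2, and for the replicate 1 pair, a ratio of single libraries with no replicate check.

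Of the 8 markers, only Prom1 differed between knockout and WT past the threshold (adjusted p under 0.05 over all genes in edgeR's quasi-likelihood test), and it was higher in knockout. The cytokeratins Krt7 and Krt19, Epcam, Sox9, Spp1 and Cftr overlapped between the groups. Krt23 did not overlap and did not pass the test, and its high value was that of knockout replicate 1. All 8 genes passed the filter on low counts. Of the 14539 genes tested, 3.37% were called, 2.15% as higher and 1.22% as lower. An unadjusted p under 0.05 was found for 2 of the 8 markers, Prom1 and Krt23, and for 26.3% of all genes. Their median log2 fold change was 0.10, against 0.01 over all genes tested.

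Prom1 encodes prominin-1 (CD133), a membrane protein of protrusions on the surface of epithelial and stem or progenitor cells, which in liver is used as a marker of ducts and progenitor cells. The gene (ENSMUSG00000029086.15) lies on GRCm38 chromosome 5, 43993620 to 44102032, minus strand. Prom1 was at 63.5, 39.2 and 68.4 CPM in the knockout libraries and at 6.98, 1.08 and 1.13 CPM in the WT libraries. Every knockout library was above every WT library, and the highest WT value was that of replicate 1. The group means, 57.0 ± 15.6 for knockout against 3.06 ± 3.39 CPM for WT (SD, n = 3), had an 18.6-fold ratio. The fitted log2 fold change was 4.21 ± 0.794 (SE), with a 95% interval from 2.33 to 6.10 and an edgeR adjusted p of 0.0442.

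The size of the Prom1 difference depended on the libraries. In replicates 2 and 3 the ratio of means was 48.6-fold, and the log2 fold change was 5.60 ± 0.337 (adjusted p = 0.000616 in edgeR, in a fit that called 33.3% of 14546 genes). In the replicate 1 pair, 1 library against 1, the ratio was 9.10-fold. The interaction test therefore takes its spread from replicates 2 and 3 alone. The interaction of group and Xist state was -2.41 on the log2 scale with an unadjusted p of 0.00322 and an adjusted p of 0.0745 in edgeR, where 2.90% of genes were called. The difference between the ratios was thus not past the threshold, although it passed when libraries were scaled by size alone (adjusted p = 0.0294) and without the low-count filter (1.53e-06). The call of Prom1 over all libraries was lost when knockout replicate 2 or 3 or WT replicate 2 or 3 was left out, with edgeR adjusted p from 0.0995 to 0.178 and log2 fold changes from 3.81 to 4.43. It held without knockout replicate 1 (adjusted p = 0.0167) and without WT replicate 1 (0.00454).

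RefSeq gives Prom1 more than 1 start site, and gene-level counts do not say which was used. The window shown is that of the start at 44094768, and it holds no annotated exon of Prom1. In GENCODE the exon that begins at this start is the first of 3 Prom1 transcripts and a later one of 7, of 19 in all, so that in the latter the window is intron next to a splice site. The window of the other RefSeq start lies in an annotated exon and is not shown. It is set beside the window of Krt23, because these were the markers whose groups did not overlap. Capitals mark a match to a searched motif, and distances are counted from the RefSeq start of GRCm38.p6, on the minus strand in both cases. The Prom1 window is chr5:44094769-44095018 and the Krt23 window is chr11:99493138-99493370, from which the 17 bases next to the start were left out because they lie in the annotated first exon.
Prom1: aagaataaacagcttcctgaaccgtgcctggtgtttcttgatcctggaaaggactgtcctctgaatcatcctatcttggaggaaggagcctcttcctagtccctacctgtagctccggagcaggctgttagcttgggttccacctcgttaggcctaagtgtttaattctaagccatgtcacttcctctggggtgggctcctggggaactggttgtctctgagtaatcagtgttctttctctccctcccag
Krt23: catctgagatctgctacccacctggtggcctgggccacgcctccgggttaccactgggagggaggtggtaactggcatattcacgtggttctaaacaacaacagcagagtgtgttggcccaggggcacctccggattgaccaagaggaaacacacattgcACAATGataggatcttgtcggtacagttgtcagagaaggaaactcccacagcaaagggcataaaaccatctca
Both strands were searched for the cyclic AMP response element TGACGTCA and its partial form TGACG, for the TEAD motif GGAATG, for the RBPJ motif GTGGGAA, for the SOX motif ACAATG, for the HNF1 motif and for TATAAA. The partial form is contained in the full element. Neither Prom1 window held a match. Krt23 held ACAATG at position -90, a motif found in 10.7% of all 32851 promoter windows of 250 bases. The other shares were 1.55% for TGACGTCA, 17.8% for TGACG, 12.6% for GGAATG, 5.42% for GTGGGAA, 0.00913% for the HNF1 motif and 12.4% for TATAAA. A match to these letters is a description of the sequence, not of binding.

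Krt23 encodes a type I keratin that is scarce in resting liver and is known as a stress-inducible keratin of the ductular reaction. The gene (ENSMUSG00000006777.7, chromosome 11, 99477974 to 99493137, minus strand) was at 8.01, 2.30 and 2.04 CPM in knockout and at 1.48, 1.60 and 1.88 CPM in WT. The lowest knockout library was just above the highest WT library, and knockout replicate 1 was 3.69 times the mean of the other knockout libraries. Separation of this kind was seen for 32.4% of all genes tested. The log2 fold change was 1.32 ± 0.548, with an edgeR adjusted p of 0.186, and it was 0.31 ± 0.236 (adjusted p = 0.348) in replicates 2 and 3. In the replicate 1 pair the ratio was 5.42-fold. The interaction was 2.12 on the log2 scale, with an edgeR adjusted p of 0.0527, which was under 0.05 with size factors from the RLE method (0.0484) and without the low-count filter (0.00148).

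Proliferation genes moved with the high value of Krt23. Summed over a list of 8 genes that included Mki67 and Top2a, they were at 56.1 CPM in knockout replicate 1, at 5.31 CPM in replicate 2, at 4.18 CPM in replicate 3 and at 5.13 to 9.29 CPM in WT. Their part in the Krt23 value was not tested.

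**Figure D1:**
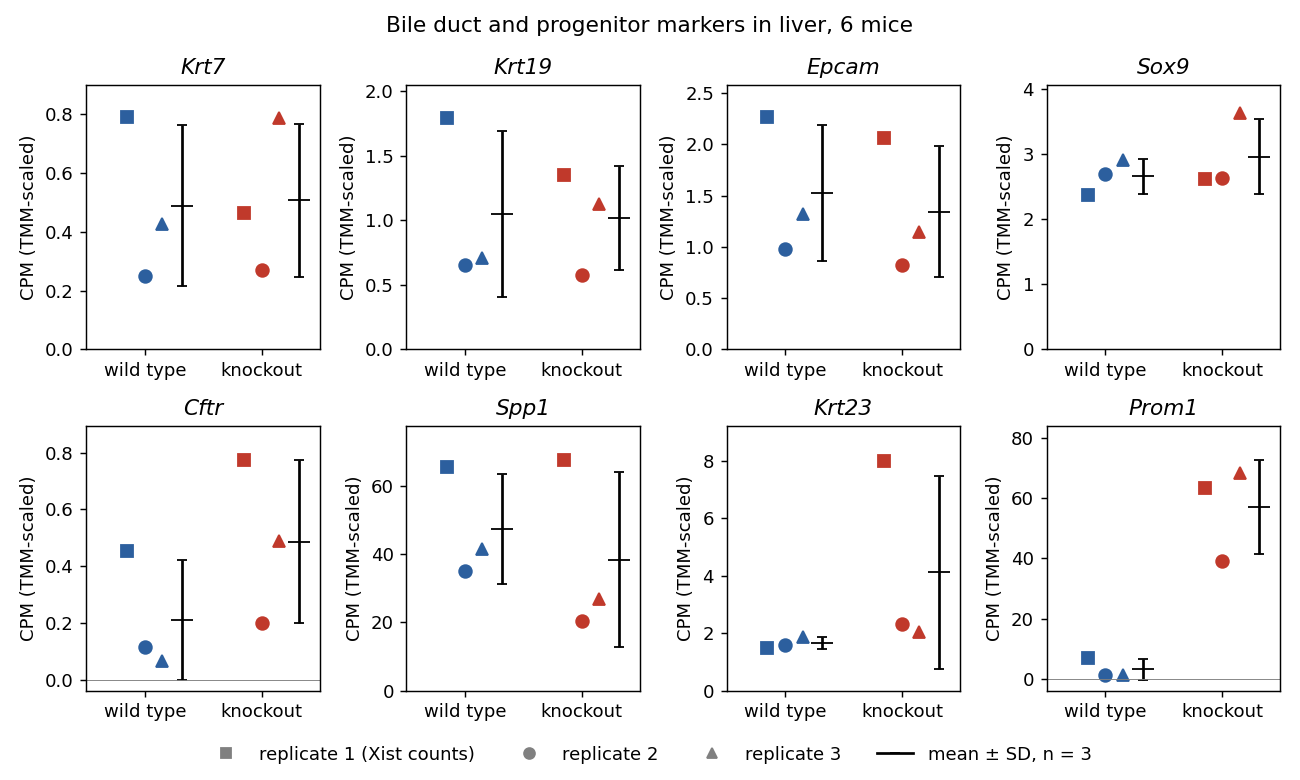
CPM of the 8 markers in each library (points, with squares for the replicates with Xist counts) and the mean with SD of each group (black, n = 3); each panel has its own linear axis. Prom1 in knockout sits between 39.2 and 68.4 CPM, above every WT library, whereas 6 of the other panels show overlapping groups and Krt23 is high in knockout replicate 1 alone.

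The keratins Krt7 and Krt19 and the adhesion gene Epcam overlapped between knockout and WT and did not pass the test. Krt7 (ENSMUSG00000023039.17, chromosome 15, 101411043 to 101430313, plus strand), a type II keratin, was at 0.46, 0.27 and 0.79 CPM in knockout and at 0.79, 0.25 and 0.43 CPM in WT. These are only 13 to 40 counts per library. Krt19 (ENSMUSG00000020911.14, chromosome 11, 100140810 to 100148665, minus strand), the type I keratin most used to stain ducts, was at 1.36, 0.58 and 1.12 CPM in knockout and at 1.79, 0.66 and 0.71 CPM in WT. Epcam (ENSMUSG00000045394.9, chromosome 17, 87635979 to 87651129, plus strand), an adhesion molecule of ducts and progenitor cells, was at 2.06, 0.83 and 1.15 CPM in knockout and at 2.27, 0.98 and 1.33 CPM in WT. For all 3 genes the WT library with the highest value was replicate 1, and the ranges of the groups overlapped.

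The log2 fold changes of these genes were small beside their errors. They were 0.04 ± 0.568 for Krt7, -0.05 ± 0.520 for Krt19 and -0.18 ± 0.461 for Epcam, with edgeR adjusted p of 0.968, 0.962 and 0.832. The 95% intervals were wide, from 0.405- to 2.62-fold for Krt7, from 0.412- to 2.27-fold for Krt19 and from 0.414- to 1.88-fold for Epcam. Changes within these intervals were not told apart from no change with 3 mice per group. In replicates 2 and 3 the log2 fold changes were 0.62, 0.31 and -0.23, and the adjusted p ran from 0.478 to 0.613.

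Sox9 (ENSMUSG00000000567.5, chromosome 11, 112782224 to 112787760, plus strand), the transcription factor of ducts and of some hepatocytes next to the portal tract, was the steadiest of the markers. It was at 2.62, 2.63 and 3.63 CPM in knockout and at 2.37, 2.7 and 2.91 CPM in WT. The groups overlapped, and knockout replicate 3 was the highest. The log2 fold change was 0.15 ± 0.227 (edgeR adjusted p = 0.694), with a 95% interval from 0.767- to 1.62-fold, the narrowest of the 8. The value was 0.15 in replicates 2 and 3 and 0.15 in the replicate 1 pair.

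Spp1 (ENSMUSG00000029304.14, chromosome 5, 104435118 to 104441050, plus strand) encodes osteopontin, a secreted matrix protein made by ducts and also by macrophages and activated stellate cells. It was at 67.7, 20.5 and 26.9 CPM in knockout and at 65.5, 34.9 and 41.4 CPM in WT. Replicate 1 was the highest library of each group, and with it the groups overlapped. Over all libraries the log2 fold change was -0.30 ± 0.469 (edgeR adjusted p = 0.712). In replicates 2 and 3 both knockout values lay below both WT values, by a fitted log2 difference of -0.69 ± 0.168 (adjusted p = 0.0285), in the fit that called 33.3% of genes and 16.1% as lower. In the replicate 1 pair the log2 ratio was 0.05. The interaction had an unadjusted p of 0.0453 and an adjusted p of 0.230 in edgeR. Without knockout replicate 1 Spp1 was called as lower (-1.0, edgeR adjusted p = 0.0470), in a fit that called 4473 of 14833 genes.

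Markers of the other cells that make osteopontin were uneven across the same libraries. The sum of 10 macrophage genes, led by Cd5l and Clec4f, was 235, 147 and 107 CPM in the knockout libraries against 145 to 198 CPM in WT. The sum hides differences between its genes, whose median log2 fold change was -0.02. Cd5l and Clec4f had log2 fold changes of 0.15 and -0.19 (edgeR adjusted p = 0.745 and 0.713). Of the 10 genes 2 were higher in knockout without overlap and 0 were lower, beside 16.9% and 15.5% of all genes tested. In replicates 2 and 3 edgeR called 3 of them as higher and 3 as lower, where 17.2% and 16.1% of all genes were. The sum of 10 stellate cell genes was 240, 151 and 113 CPM in knockout against 182 to 382 CPM in WT. Ecm1 and Reln, the most abundant of the stellate genes, had log2 fold changes of -0.44 and -1.22 (edgeR adjusted p = 0.406 and 0.276). The part of these cells in the Spp1 values was not tested. Of 10 osteopontin receptor genes 9 were tested, and 0 were called in edgeR, with an unadjusted p under 0.05 for 2. Itgb1 and Itgb5, integrin subunits and the most abundant of them, had log2 fold changes of -0.08 and -0.04.

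Cftr (ENSMUSG00000041301.15, chromosome 6, 18170687 to 18322768, plus strand), the chloride channel through which secretin drives duct secretion, was the scarcest marker. It had 45, 11 and 23 counts in the knockout libraries and 23, 6 and 3 counts in WT, or 0.77, 0.20 and 0.49 CPM against 0.45, 0.12 and 0.06 CPM. Knockout replicate 1 was the highest, and the groups overlapped because WT replicate 1 was above knockout replicate 2. The log2 fold change was 1.19 ± 0.796 (edgeR adjusted p = 0.378), with a 95% interval from 0.617- to 8.43-fold. In replicates 2 and 3 the groups did not overlap and the value was 1.86 ± 0.677 (adjusted p = 0.0856). Separation without overlap was seen for 71.4% of all genes in these 4 libraries.

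**Figure D2:**
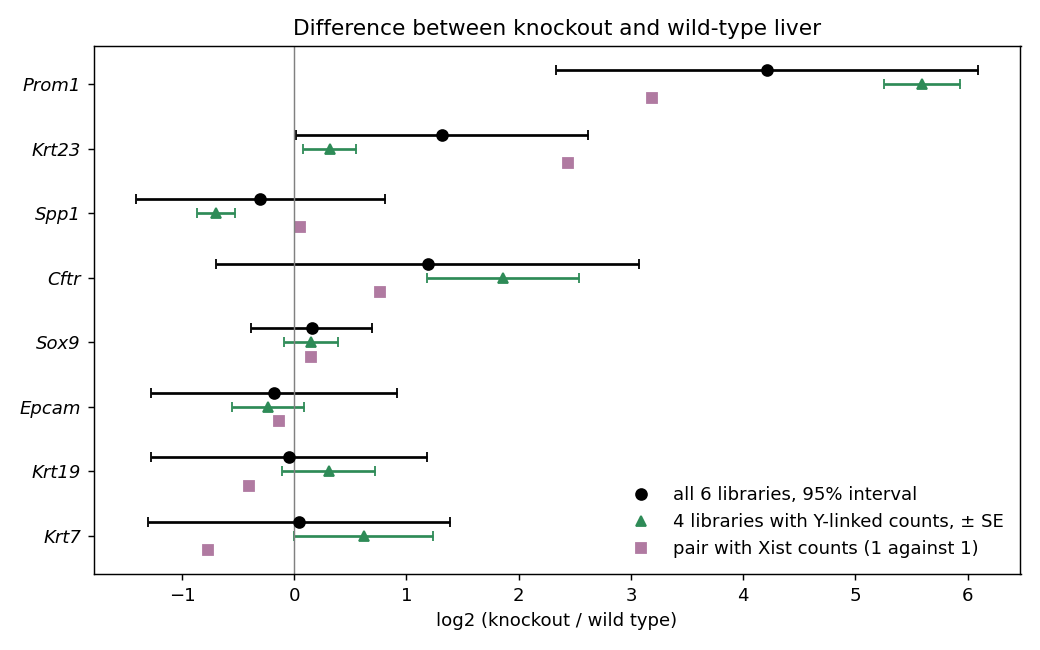
Log2 ratio of knockout to WT for each marker: edgeR fit of all 6 libraries with its 95% interval (circles), edgeR fit of replicates 2 and 3, the libraries with Y-linked counts, with its SE (triangles), and the ratio of the replicate 1 pair, those with Xist counts (squares). Prom1 lies to the right in all 3, at 4.21, 5.60 and 3.19, Sox9 stays at 0.15 in each, and for Spp1, Krt7 and Krt19 the squares and triangles lie on opposite sides of 0.

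Levels of different genes were compared as CPM per kilobase, with the joined length of a gene's annotated exons. In WT, Spp1 came first with a mean of 28.7 CPM per kilobase. Krt23 (1.06), Epcam (0.69), Sox9 (0.64), Krt19 (0.57) and Prom1 (0.43) followed, and neighbours in this order overlapped between libraries. Krt7 (0.069) and Cftr (0.027) came last and overlapped with each other. Prom1 was sixth among the 8 in WT, at 0.15 to 0.97 CPM per kilobase. In knockout it was second, at 5.46 to 9.53 CPM per kilobase, below Spp1 (12.4 to 41.1) and above Krt23 (1.3 to 5.12), and did not overlap with either. The order of Sox9, Epcam and Krt19 in knockout (0.72, 0.61 and 0.55) was within their spread.

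Several markers were higher in replicate 1 of both groups. Krt19, Epcam, Spp1 and Cftr had their highest value there in knockout and in WT, 4 of 8 markers, against 21.2% of all genes tested. In WT, replicate 1 was 2.64 times the mean of the other libraries for Krt19, 1.96 times for Epcam, 1.71 times for Spp1 and 5.04 times for Cftr. In knockout these ratios were 1.59, 2.09, 2.86 and 2.25. Sox9 differed from them, since replicate 1 was at 0.844 times the other libraries in WT and 0.839 times in knockout. In a fit with group and Xist state as terms, which was chosen after these values were seen, the log2 difference between libraries with Xist counts and the others was 1.16 ± 0.208 for Spp1, 1.02 ± 0.257 for Epcam, 1.05 ± 0.355 for Krt19 and 1.66 ± 0.513 for Cftr. Of the 8 markers 0 passed the threshold in edgeR, the lowest adjusted p was 0.121, and 5 had an unadjusted p under 0.05. Over all genes 0.138% passed, 0.0825% as higher and 0.055% as lower, and 18.9% had an unadjusted p under 0.05. Replicate 1 was also highest in both groups for 9 of 10 stellate, 3 of 3 mesothelial and 6 of 7 endothelial genes tested. The same held for 5 of 7 hepatocyte, 5 of 6 proliferation, 9 of 13 Notch and 1 of 10 macrophage genes, and for 13 of 20 YAP and TAZ targets. Lists of ducts were uneven, with 9 of 15 other duct epithelium, 3 of 9 duct secretion, 3 of 11 biliary factor and 5 of 10 ductular reaction genes. The count was 4 of 9 for osteopontin receptors, 4 of 7 for lymphocyte genes and 1 of 4 for other keratins. The part of the other cell types in the duct markers' values was not tested.

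Profiles over the 6 libraries were compared by the root mean squared difference of log2 CPM after each gene's mean was subtracted. Among the markers Epcam and Spp1 were the closest pair (0.220), followed by Krt19 and Epcam (0.258) and Krt7 and Krt19 (0.333). Among 11972 other genes, those nearest to Prom1 were Mmd2 (0.288), Tmprss7 (0.439) and the metallothionein gene Mt1 (0.554). Mmd2 was at 127, 82.5 and 109 CPM in knockout and at 7.96, 2.01 and 1.92 CPM in WT (edgeR adjusted p = 0.0212). Tmprss7, a gene of a membrane serine protease, was at 2.68, 1.71 and 2.23 CPM in knockout, at 0.079 CPM in WT replicate 1 and at 0 counts in the other WT libraries. Like Prom1, these genes were higher in WT replicate 1 than in the other WT libraries, a likeness for which they were chosen. Nearest to Krt23 were Stmn1 (0.210), Josd2 (0.258) and the replication helicase gene Mcm6 (0.288). By the same choice, all of them were highest in knockout replicate 1.

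The remaining markers had neighbours at shorter distances. Those of Spp1 were Palm, Afap1 and Plekhh2 (0.099 to 0.129), those of Epcam were Fasn, Scarf2 and Afap1 (0.146 to 0.150), and those of Sox9 were Mto1, Pon2 and Tnrc6b (0.047 to 0.062). Nearest to Krt19 were Kif3c (0.117), Bicc1 (0.127) and Sema5a (0.183), and Bicc1, an RNA-binding protein gene of duct and kidney epithelium, was also on the list of duct genes below. Krt7 and Cftr had too few counts for this comparison, which took genes with a mean of at least 1 CPM.

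**Figure D3:**
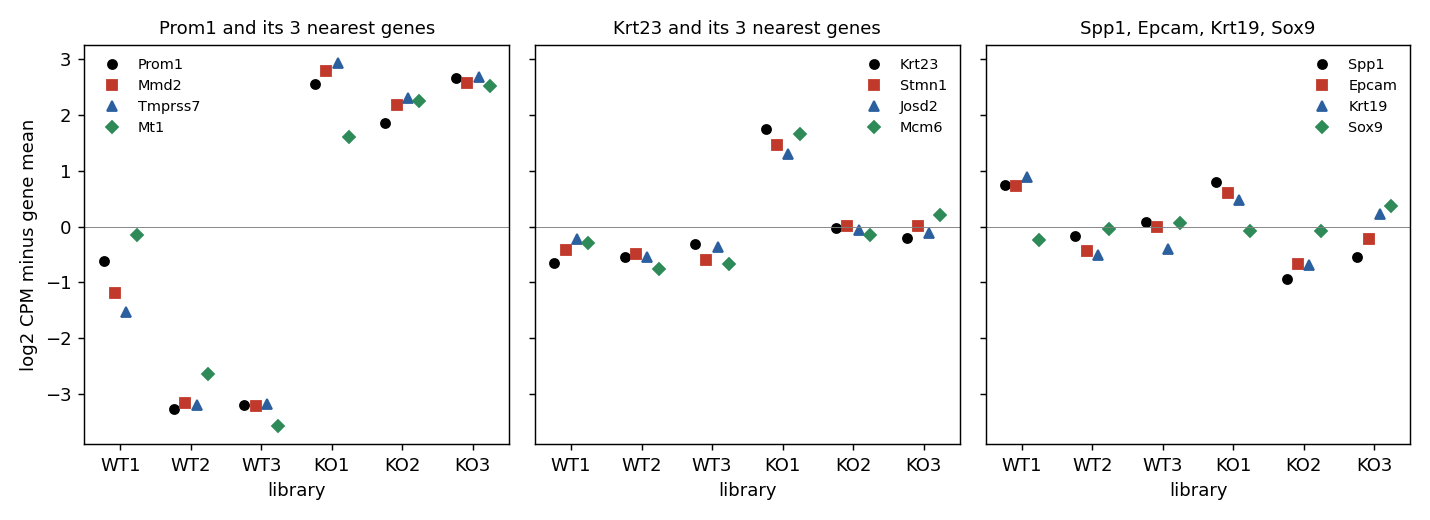
Log2 CPM of each library minus the gene's mean over the 6 libraries, for Prom1 and its 3 nearest genes, for Krt23 and its 3 nearest genes, and for Spp1, Epcam, Krt19 and Sox9. The Prom1 group separates knockout from WT with WT replicate 1 in between, the Krt23 group is high in knockout replicate 1, and in the last panel Spp1, Epcam and Krt19 are high in replicate 1 of both groups while Sox9 is level.

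Other genes of ducts, of the pathways that set duct fate and of the ductular reaction were read from the same fit. With the markers of other cell types these lists named 169 genes, of which 168 were found in the table and 139 were tested. edgeR called 0 of them as higher and 1, Dsg2, as lower, beside 3.37% of all genes. An unadjusted p under 0.05 was found for 31 of them, or 22.3%, against 26.3% of all genes. DESeq2 called 20 of the 134 to which it gave an adjusted p, or 14.9%, against 15.8% of all genes, and limma voom called 2, or 1.44%, against 2.97%. In replicates 2 and 3, 17 were called as higher and 38 as lower, where 17.2% and 16.1% of all genes were.

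Of 17 other structural genes of duct epithelium 15 were tested, with a median log2 fold change of -0.16. Dsg2, a desmosomal cadherin that hepatocytes also carry, was at 94.7, 74.6 and 86.3 CPM in knockout and at 190, 167 and 159 CPM in WT. Its log2 fold change was -1.01 ± 0.152 with an edgeR adjusted p of 0.0275, and it was -1.02 in replicates 2 and 3 and -1.01 in the pair. Krt8 and Krt18, the keratin pair that hepatocytes share with ducts, were at 173 and 134 CPM in knockout replicate 1, at 595 and 455 CPM in replicate 2 and at 325 and 239 CPM in replicate 3. The WT libraries held 214 to 227 CPM of Krt8 and 151 to 174 CPM of Krt18, so knockout replicate 1 lay below WT and the other knockout libraries above it. Neither was called over the 6 libraries (edgeR adjusted p = 0.306 and 0.266). Of 14 other keratins, this pair included, 4 were tested with 0 called by edgeR, 0 with an unadjusted p under 0.05 and a median of 0.69.

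Genes of duct secretion (9 of 12 tested, median -0.37) had 0 calls in edgeR and 2 with an unadjusted p under 0.05. Aqp1, a water channel of ducts and of endothelium, was at 57.7, 26.7 and 24.7 CPM in knockout and at 106, 82.1 and 84.7 CPM in WT, with no overlap, a log2 fold change of -1.32 and an edgeR adjusted p of 0.0759. In replicates 2 and 3 its adjusted p was 0.000616. Endothelial markers lay in the same direction: 6 of 7 had no overlap and lower values in knockout, against 15.5% of all genes, and their sum was 75.5 to 129 CPM against 156 to 214 CPM in WT. Kdr and Clec4g, the most abundant of them, had log2 fold changes of -0.75 and -1.03 (edgeR adjusted p = 0.0626 and 0.0741). Their part in the Aqp1 values was not tested. The bicarbonate exchanger gene Slc4a2 was level, at 33.1 to 34.9 CPM against 29.8 to 33.2 CPM in WT.

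Transcription factors of biliary fate (11 tested, median 0.10), Notch receptors, ligands and targets (13 of 14 tested, median -0.18) and targets of the Hippo pathway factors YAP and TAZ (20 of 22 tested, median -0.27) had 0 calls in edgeR over the 6 libraries. An unadjusted p under 0.05 was found for 2, 1 and 4 of them. Onecut2 and Hhex, the most abundant of the factors, had log2 fold changes of -0.19 and 0.20. Notch2, the receptor needed for duct formation, was at 39.7 to 41.5 CPM against 36.7 to 48.4 CPM in WT, and Rbpj, the DNA-binding partner of Notch, at 18.9 to 23.2 against 19.3 to 19.9 CPM. Among the YAP and TAZ targets, Wwc1 and Nt5e were the most abundant and had log2 fold changes of -0.41 and -0.59. Nt5e was at 41.6 and 71.6 CPM in replicate 1 of knockout and WT and at 7.50 to 10.3 CPM elsewhere.

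Other genes of the ductular reaction and of progenitor or fetal liver (10 of 14 tested, median -0.33) also had 0 calls in edgeR and 2 with an unadjusted p under 0.05. Tnfrsf12a, the receptor of the cytokine TWEAK that drives progenitor growth, was at 4.60, 61.2 and 30.7 CPM in knockout and at 4.22, 5.03 and 4.90 CPM in WT. It was high in knockout replicates 2 and 3 and at the WT level in replicate 1. The log2 fold change was 2.77 (edgeR adjusted p = 0.0942) and 3.21 (0.00277) in replicates 2 and 3. Clu, an abundant secreted chaperone, was at 877 to 995 CPM in knockout and at 1023 to 1207 CPM in WT (-0.25, adjusted p = 0.406).

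**Figure D4:**
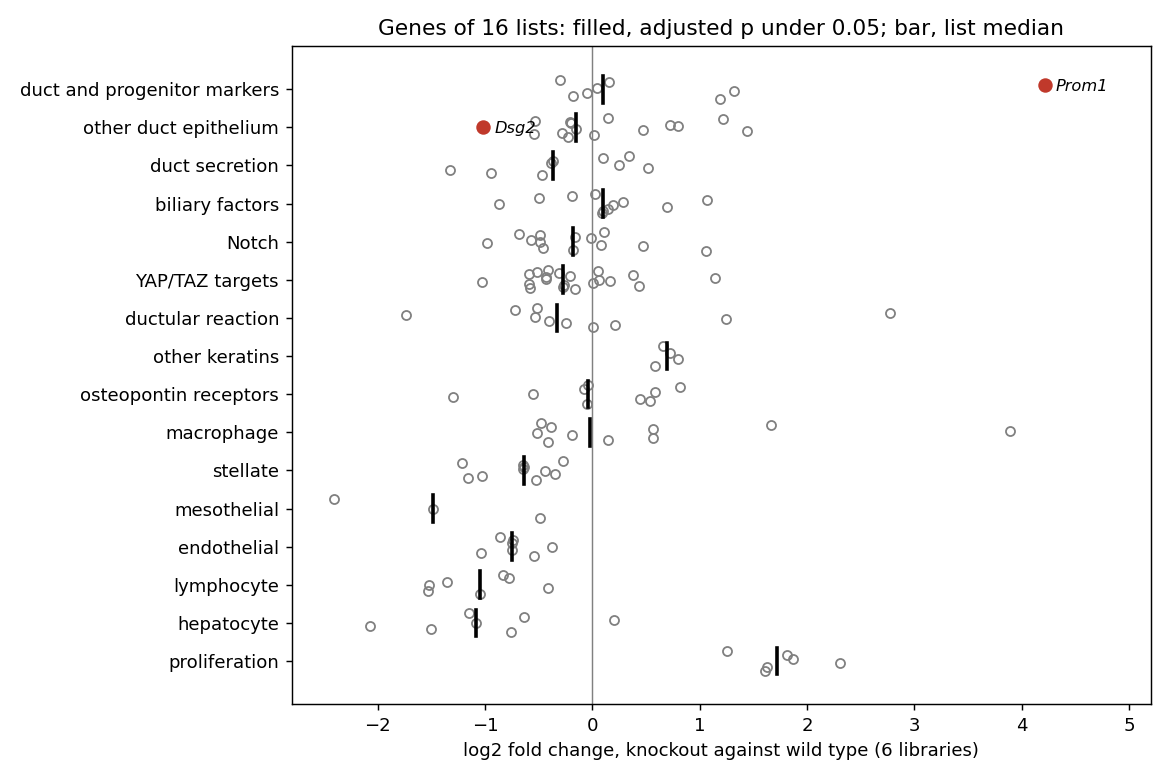
Log2 fold change of each tested gene in the 8 markers and in 15 other lists, from the edgeR fit of the 6 libraries; filled points passed an adjusted p of 0.05 and the bar is the median of the list. Prom1 at 4.21 and Dsg2 at -1.01 are the filled points.

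Hepatocyte markers identified the tissue, with albumin (Alb) at 10394 to 95626 CPM. The sum of 7 hepatocyte genes was 21553 to 70647 CPM in the knockout libraries against 85795 to 127849 CPM in WT, a sum to which Alb gave the most. Of the 7 genes, 5 had lower values in knockout without overlap, beside 15.5% of all genes tested. Serpina1c overlapped. The transcription factor gene Hnf4a was higher without overlap, as were 16.9% of all genes, at 542 to 670 against 524 to 539 CPM. Serpina1c and Hnf4a were named after their values were seen. In edgeR 0 of the 7 were called, and 3 had an unadjusted p under 0.05, against 26.3% of all genes. Alb and Ahsg had log2 fold changes of -1.50 and -0.75 (edgeR adjusted p = 0.190 and 0.198). Markers of the mesothelium, a surface layer that also carries Krt7 and Krt19, were scarce, at 1.44 to 2.85 CPM against 2.12 to 9.31 CPM in WT over 6 genes, with the highest sum in WT replicate 1. Upk3b and Gpm6a led them, at 2.92 and 2.96 CPM in that library. Lymphocyte markers summed to 1.27 to 3.41 CPM against 3.99 to 4.87 CPM in WT, with Cd4 and Cd79a as the most abundant. The part of these cells in the marker values was not tested.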

How the data were processed

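Liver RNA of 6 mice was analysed from 1 table of expected counts per gene, which the authors deposited for 55450 genes. Per the submitters' processing notes, bcl2fastq 2.17, cutadapt 1.18, STAR 2.7.0f and RSEM 1.3.1 were used, and the genome build mm9 is named. All 55450 gene identifiers, with version, were found in GENCODE M21 for GRCm38, so positions and exon lengths come from that annotation. The use of strand is not given in the sources used here. Genes of other names overlap Krt7, Spp1, Cftr and Prom1 but had at most 4 counts in a library, and 1 of the 48 marker values was not whole. Promoter windows are RefSeq's for GRCm38.p6, found for 6 of the 8 genes, with no entry for Krt19 and Sox9.

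Expected counts were rounded to whole numbers, filtered with filterByExpr, scaled with TMM factors and compared with edgeR 4.0.16 (glmQLFit, glmQLFTest) in R 4.3.3, with the group as the only term and Benjamini-Hochberg adjustment over all genes tested. The SE is the log2 fold change divided by the square root of F. Profiles use log2 CPM with a prior count of 2. A floor of 3 counts is 0.0515 to 0.0641 CPM. DESeq2 1.42.0, limma 3.58.1 (voom), other scalings, filters, terms and subsets were alternatives. Groups come from the sample titles and 0 columns were left unused. P-values of the group difference set it against the spread between the mice of a group. In the main fit this spread includes the difference between replicate 1 and the others. In the interaction fit replicate 1 is the only library of its group with Xist counts. The p-values of that fit therefore use the spread between replicates 2 and 3 alone.

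The test was tried on simulated counts. The markers and lists were chosen with earlier results of these data known. Genes named are Stk11, the 8 markers, the called genes and the 2 most abundant genes of each other list, and for markers with a mean of at least 1 CPM the 3 nearest profiles.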

Additional observations from a re-analysis of the deposited data

Results flagged for a closer look

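For 10 of the genes named by the rule above, the knockout difference had opposite directions in the replicate 1 pair and in replicates 2 and 3. In replicates 2 and 3 both knockout libraries of these genes lay on the other side of both WT libraries. Separation without overlap was seen for 71.4% of all genes in these 4 libraries. The share of all genes with such opposite directions is not given here. Among the markers this was Spp1, with a log2 ratio of 0.0474 in the pair against a fitted -0.69 (interaction adjusted p = 0.230 in edgeR). Krt8 and Krt18 had log2 ratios of -0.36 and -0.38 in the pair and fitted values of 1.06 and 1.19 in replicates 2 and 3 (interaction adjusted p = 0.204 and 0.187). Notch2 (-0.29) and Rbpj (-0.0356) were lower in the pair and higher in replicates 2 and 3, whereas Itgb5 (0.14), Clec4f (0.35) and Cd4 (0.28) were higher in the pair and lower in replicates 2 and 3. Mki67 had a log2 ratio of 2.60 in the pair and -1.56 in replicates 2 and 3. The interaction of these 9 genes did not pass the threshold, with edgeR adjusted p from 0.0791 to 0.572. Top2a, the tenth, had a log2 ratio of 2.34 in the pair and -1.51 in replicates 2 and 3, and its interaction was called, at 3.84 on the log2 scale (edgeR adjusted p = 0.0202, beside 2.90% of all genes). Serpina1c, which was named after its values were seen, showed the same pattern. Its log2 ratio was 0.12 in the pair and -0.96 in replicates 2 and 3 (interaction adjusted p = 0.315 in edgeR). The pair is 1 library against 1, so the interaction test takes its spread from replicates 2 and 3 alone.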

How the results depend on the processing

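Over 15 alternatives Prom1 stayed higher in knockout in each, with log2 fold changes from 3.81 to 5.68 and adjusted p from 7.98e-05 to 0.178, and it was called in 10. The labels do not say whether the replicate numbers pair the mice. Deviations of same-numbered libraries from their group means correlated at 0.178, 0.047 and 0.0671, and 2 of the 3 WT libraries correlated best with another number. With 3 libraries per group these correlations cannot decide whether the mice were paired. With the replicate block 105 genes and 0 markers were called in place of 490 and 1, and the log2 fold change of Prom1 was 4.72 (adjusted p = 0.0512). The count of genes called was 2290 with DESeq2, 771 without the low-count filter, 1504 with Xist state as a term and 4847 in replicates 2 and 3 alone. In replicates 2 and 3, 2 of the 8 markers were called and 4 had no overlap, beside 33.3% and 71.4% of all genes. Leaving out 1 library gave 6 (without WT replicate 2) to 4473 genes (without knockout replicate 1) and 0 to 2 markers. Without knockout replicates 2 and 3 it gave 86 and 35 genes, without WT replicates 1 and 3 it gave 262 and 20. With scaling by library size alone, 74.4% of the called genes were higher in knockout, in place of 63.9% of those called in the main fit.

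The interaction was called for 0 markers, but for 1 with RLE size factors (Krt23), 1 with library size alone (Prom1) and 2 without the low-count filter. Uncalled values near 0 changed sign. Krt19 was 0.0188 in limma voom, 0.0164 with the replicate block, 0.0576 with Xist state as a term and 0.31 in replicates 2 and 3. Leaving out 1 library gave -0.32 to 0.58 for Krt19, -0.41 to 0.57 for Krt7, -0.64 to 0.22 for Epcam, -0.0162 to 0.24 for Sox9 and -1.0 to 0.0124 for Spp1. Cftr had 3 to 45 counts in a library and Krt7 13 to 40.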
